A study of Mus musculus with 6 samples.

Results

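In all, 8 genes of plasma membrane amino acid transport were followed in postnatal mouse CMs that overexpressed YAP variants: *Slc7a5*, *Slc3a2*, *Slc7a6*, *Slc1a5*, *Slc1a4*, *Slc7a1*, *Slc38a1* and *Slc38a2*. They are the rows of the deposited count table whose Ensembl ID carries 1 of these 8 symbols in the GENCODE M21 annotation. The table holds 54532 genes. This matching uses no measured value, but the 8 genes were chosen with earlier results of these data known. Wildtype ICR mice received 1e+11 viral genomes of AAV9 subcutaneously at 6 d of age, and their hearts were collected at 9 d, which is 3 d later. The virus carried GFP, YAP5SA, in which the serines phosphorylated by the LATS kinases are replaced by alanine, or YAP6SA, which also lacks the serine needed to bind the TEAD transcription factors. Each insert was driven by the cTnT promoter, which is active in CMs. Poly-A RNA from nuclei pulled down with an antibody to PCM-1, a protein of CM nuclei, went into non-directional libraries for sequencing. There were 2 libraries per group, and all groups, GFP included, had received AAV9. The replicate number in the labels was taken as the batch, which gives 2 batches of 3 libraries. The labels mention 2 hearts per virus and do not tie a heart to a library, so p-values measure the spread between these libraries.

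Amino acids cross the plasma membrane on transporters that differ in their substrates and in what drives them. *Slc7a5* encodes LAT1, an exchanger of leucine and other large neutral amino acids. LAT1 reaches the cell surface as a heterodimer with the heavy chain CD98, which *Slc3a2* encodes, and *Slc7a6* encodes another light chain of CD98, which exchanges arginine and other cationic amino acids for neutral ones. *Slc1a5* and *Slc1a4* encode sodium-dependent exchangers of small neutral amino acids, glutamine among the substrates of the former. *Slc7a1* encodes a carrier of arginine and lysine. *Slc38a1* and *Slc38a2* encode sodium-coupled transporters that concentrate glutamine, alanine and related amino acids in the cell and so supply the exchangers. Leucine and arginine in the cell are sensed by mTORC1, a kinase complex that controls growth, and *Slc38a2* is known to be induced when amino acids are scarce.

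The start regions of 5 of the 8 genes were found in the RefSeq table of promoter windows on GRCm38.p6, which run from 250 bases before the start of a transcript to 50 bases from it. *Slc7a5*, *Slc1a5* and *Slc38a1* had no entry. The 5 genes had 7 windows, and the 3 printed here belong to *Slc3a2*, a gene that was higher in YAP5SA OE CMs, to *Slc38a2*, the most abundant of the 8 transcripts, and to *Slc1a4*, the gene whose window held a match to the amino acid response element. All 3 are on the minus strand and are printed 5′ to 3′ in the direction of transcription. Capitals mark the GC box GGGCGG, on either strand, in *Slc3a2* (chr19:8713848-8714147) and *Slc38a2* (chr15:96699679-96699978), and the match to TGATGNAA in *Slc1a4* (chr11:20332664-20332963).
Slc3a2: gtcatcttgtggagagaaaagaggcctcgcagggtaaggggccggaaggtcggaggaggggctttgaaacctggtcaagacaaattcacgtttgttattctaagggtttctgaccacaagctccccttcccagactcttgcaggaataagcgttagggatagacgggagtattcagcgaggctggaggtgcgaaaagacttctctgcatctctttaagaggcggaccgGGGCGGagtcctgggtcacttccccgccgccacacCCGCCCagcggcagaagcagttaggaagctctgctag
Slc38a2: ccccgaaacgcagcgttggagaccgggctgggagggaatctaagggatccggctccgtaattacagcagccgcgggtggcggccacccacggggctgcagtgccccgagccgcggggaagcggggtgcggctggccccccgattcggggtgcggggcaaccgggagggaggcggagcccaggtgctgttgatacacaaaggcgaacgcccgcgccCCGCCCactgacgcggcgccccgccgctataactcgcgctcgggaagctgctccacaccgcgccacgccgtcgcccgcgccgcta
Slc1a4: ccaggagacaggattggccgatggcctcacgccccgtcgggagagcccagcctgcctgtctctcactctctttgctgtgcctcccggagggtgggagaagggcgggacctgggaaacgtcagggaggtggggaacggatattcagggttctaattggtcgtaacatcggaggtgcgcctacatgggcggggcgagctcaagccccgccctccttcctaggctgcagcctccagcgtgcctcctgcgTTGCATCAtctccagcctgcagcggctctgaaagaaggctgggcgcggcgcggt
The core of the amino acid response element, TGATGNAA, matched 1 of the 7 windows on either strand, that of *Slc1a4*, where the match TTGCATCA on the minus strand of the window begins 4 bases before the start, and 3.97% of all 32851 windows in the table. The TEAD motif GGAATG and the E-box CACGTG matched 0 of the 7 windows, against 14.7% and 7.15% of all windows. The GC box GGGCGG, bound by Sp1-like factors, matched 6 of the 7 windows, against 35.7% of all windows. The windows of *Slc7a6* overlap and share the same GC box, so the 6 count that site more than once. These motifs do not overlap one another in the 3 windows shown. A match describes the letters of a window and is no evidence of binding. The *Slc3a2* window lies inside the gene as GENCODE draws it, since GENCODE has a longer upstream transcript.

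The libraries held 14552847 to 19615627 gene counts. *Yap1* itself had 1828 to 2647 counts per library, and its log2 fold change against GFP was -0.17 in YAP5SA OE CMs (edgeR quasi-likelihood test, FDR 0.495) and -0.09 in YAP6SA OE CMs (FDR 0.952), and whether viral transcripts are counted on *Yap1* was not tested. The 9 CM markers were all detected and summed to 49551 and 66524 CPM (read counts relative to library size, scaled by edgeR's TMM method) in GFP, 47357 and 60892 in YAP6SA, and 41633 and 30373 in YAP5SA. Of them, *Ryr2* and *Pln* were lower and *Nppa* was higher in YAP5SA OE CMs than in GFP. A large part of the sum was *Myh6*, at 17905 and 28041 CPM in GFP, and *Tnnt2*, at 15045 and 17624, and neither of these was called. Markers of other cells were present in every library, at 860 to 1777 CPM for 8 fibroblast genes, 241 to 330 for 7 endothelial genes, 321 to 547 for 6 mural genes, 60.8 to 119 for 8 leukocyte genes and 24.8 to 64.0 for 6 erythroid genes. Against GFP, *C1qa* of the leukocyte list and *Myh11* of the mural list were higher and *Abcc9* of the mural list was lower in YAP5SA OE CMs. In that comparison 0 fibroblast and 0 endothelial markers were called. In YAP6SA against GFP, 0 fibroblast markers were called, with a median log2 fold change of 0.32 against 0.00 over all genes tested. At an unadjusted p under 0.05 (edgeR quasi-likelihood test) there were 3 of the 8, where 5.93% of all genes tested were. A large part of the mural sum was *Abcc9* alone, at 272 and 387 CPM in GFP, 311 and 374 in YAP6SA, and 216 and 156 in YAP5SA. Which cells its reads came from was not tested. In bulk nuclei, a change in the share of a cell type cannot be told apart from a change in RNA per nucleus.

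The 8 genes covered a wide range of abundance in GFP-treated CMs. On a per-length scale (TPM, computed from the counts and the exon length of each gene), *Slc38a2* stood at 828 ± 60.9 TPM (mean ± SD, n = 2 libraries), and its transcripts alone made up 70.5% and 71.2% of the TPM of the 8 genes in the GFP libraries. *Slc7a6* followed at 196 ± 2.54 TPM, *Slc3a2* at 71.9 ± 9.35 and *Slc1a4* at 28.2 ± 5.13. *Slc38a1* at 15.6 ± 2.71, *Slc1a5* at 15.3 ± 4.27 and *Slc7a1* at 11.7 ± 2.45 TPM were close together, and the libraries of *Slc1a5* overlapped those of both its neighbours. This closeness depends on the exon lengths used, which were 17236, 4173 and 11530 bases. Without division by length, these genes had means of 66.0, 15.5 and 32.9 CPM in GFP. *Slc7a5* was last, at 2.57 ± 1.02 TPM.

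In YAP5SA OE CMs the order was the same for the top 3 and changed below them. *Slc38a2* stood at 813 ± 165 TPM, *Slc7a6* at 209 ± 30.5 and *Slc3a2* at 141 ± 9.32. *Slc7a5* was now in place 4, at 29.3 ± 9.23 TPM, with libraries that overlapped those of *Slc38a1* (28.4 ± 8.15) and of *Slc1a4* (21.5 ± 8.11). *Slc1a5* at 17.4 ± 1.03 and *Slc7a1* at 12.6 ± 0.70 TPM came last. In YAP6SA OE CMs, *Slc7a5* stayed last at 3.83 ± 1.30 TPM, and *Slc1a4*, *Slc7a1*, *Slc1a5* and *Slc38a1* lay between 12.7 and 21.1 TPM, each with libraries that overlapped those of the next. The plot of CPM by library shows each gene on its own scale.

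**Figure D1:**
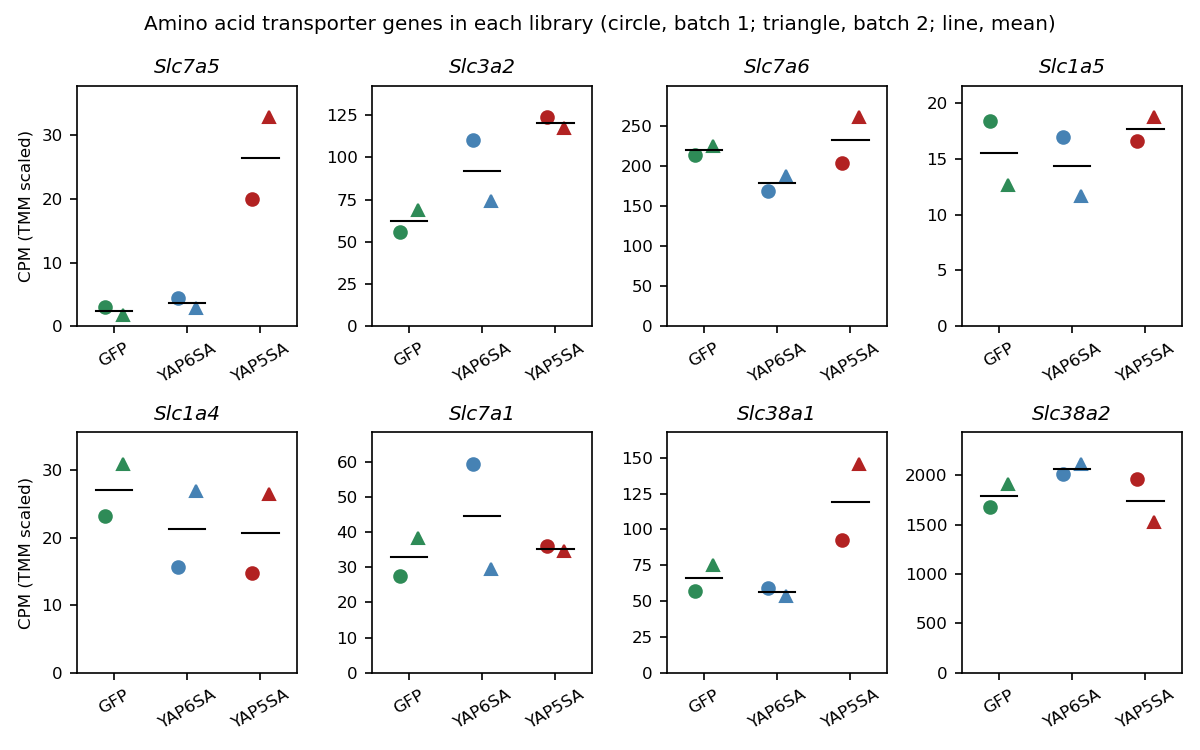
CPM (TMM scaled, linear axis from 0) of each of the 8 transporter genes in every library, by group; circles are batch 1, triangles are batch 2 and the line is the mean of 2 libraries. Both YAP5SA libraries lie above both GFP libraries for *Slc7a5*, *Slc3a2* and *Slc38a1*, and the *Slc7a1* value of the batch 1 YAP6SA library, 59.5 CPM, lies above the other 5.

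The first question was which of the transporter genes respond to YAP freed from LATS control. Against GFP, *Slc7a5*, *Slc3a2* and *Slc38a1* were higher in YAP5SA OE CMs, so that the leucine exchanger, its heavy chain and a glutamine and alanine transporter rose, whereas 5 genes were not called. *Slc7a5* rose 11.5-fold, *Slc3a2* 1.93-fold and *Slc38a1* 1.79-fold. Thus 3 of 8 genes were called higher and 0 lower at an FDR threshold of 0.05 (edgeR quasi-likelihood test with a batch term, adjusted over the 13323 genes tested), where 12.8% of all genes tested were called higher and 9.18% lower. All 8 genes were above the filter on low counts in each group. The median log2 fold change of the 8 genes was 0.15, against -0.00314 over all genes tested, with 6 of the 8 above 0.

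Of the CD98 heterodimer, the light chain gene *Slc7a5* (ENSMUSG00000040010, GRCm38 chr8:121881150-121907694, minus strand) had counts of 56 (batch 1) and 26 (batch 2) in GFP, 88 and 46 in YAP6SA, and 303 and 586 in YAP5SA. Scaled for depth, these were 2.94 and 1.70 CPM in GFP, 4.48 and 2.79 in YAP6SA, and 20.1 and 32.8 in YAP5SA. Both YAP5SA libraries were far above the other 4, while the ranges of GFP and YAP6SA overlapped. The log2 fold change against GFP was 3.52 (standard error 0.41, FDR 0.000677, edgeR quasi-likelihood test), with a 95% interval of 6.14- to 21.5-fold, and was 2.77 within batch 1 and 4.27 within batch 2. Of the 13323 genes tested, 99.2% had a smaller log2 fold change. The library with the highest *Slc7a5*, that of YAP5SA in batch 2, also had the lowest sum of CM markers, 30373 CPM, whose part in the result was not tested. The fold rests on 26 and 56 counts in GFP, where counting error is widest.

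The heavy chain gene *Slc3a2* (ENSMUSG00000010095, chr19:8706882-8723369, minus strand) had 1057 and 1052 counts in GFP, 2166 and 1225 in YAP6SA, and 1869 and 2091 in YAP5SA. These corresponded to 55.6 and 68.7 CPM, 110 and 74.3 CPM, and 124 and 117 CPM. Both YAP5SA libraries and both YAP6SA libraries were above the GFP libraries, and the YAP6SA libraries spanned most of the distance between the other groups. Against GFP, *Slc3a2* rose by a log2 fold change of 0.95 in YAP5SA OE CMs (standard error 0.20, FDR 0.00951, edgeR), or 1.16 in batch 1 and 0.77 in batch 2. Without the GFP library of batch 1 it was 0.67 and the FDR 0.0946.

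The other abundant light chain gene, *Slc7a6* (ENSMUSG00000031904, chr8:106168857-106198706, plus strand), had 4076 and 3436 counts in GFP, 3327 and 3102 in YAP6SA, and 3077 and 4652 in YAP5SA. On the CPM scale it had 214 and 224 in GFP, 169 and 188 in YAP6SA, and 204 and 261 in YAP5SA, so the YAP5SA libraries lay on either side of GFP, and both YAP6SA libraries were the lowest. Its log2 fold change in YAP5SA OE CMs was 0.07 (95% interval -0.27 to 0.41, FDR 0.766, edgeR) and had opposite signs in the batches, -0.07 and 0.22. The upper bound lies below 2.62, where the interval of *Slc7a5* begins.

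Of the sodium-coupled pair, *Slc38a1* (ENSMUSG00000023169, chr15:96571418-96642913, minus strand) had 1084 and 1148 counts in GFP, 1158 and 882 in YAP6SA, and 1403 and 2601 in YAP5SA. These were 57.0 and 75.0 CPM in GFP, 58.9 and 53.5 in YAP6SA, and 92.9 and 146 in YAP5SA. The YAP5SA libraries did not overlap either other group, and the GFP and YAP6SA libraries overlapped. *Slc38a1* rose by a log2 fold change of 0.84 in YAP5SA OE CMs against GFP (standard error 0.19, FDR 0.0132, edgeR), or 0.71 in batch 1 and 0.96 in batch 2. Without the GFP library of batch 1 the FDR was 0.0683, and without that of batch 2 it was 0.0686.

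Its neighbour on chromosome 15, *Slc38a2* (ENSMUSG00000022462, chr15:96687392-96699730, minus strand), had 31849 and 29249 counts in GFP, 39636 and 34890 in YAP6SA, and 29554 and 27179 in YAP5SA. It stood at 1674 and 1910 CPM in GFP, 2016 and 2115 in YAP6SA, and 1958 and 1523 in YAP5SA. The YAP5SA libraries lay on both sides of the GFP libraries. The log2 fold change in YAP5SA OE CMs was -0.05 (95% interval -0.52 to 0.43, FDR 0.904, edgeR), with 0.23 in batch 1 and -0.33 in batch 2. The share of *Slc38a2* in the TPM of the 8 genes was 68.6% and 58.6% in the YAP5SA libraries, both lower than in the GFP libraries.

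Of the small neutral amino acid exchangers, *Slc1a5* (ENSMUSG00000001918, chr7:16781340-16798274, plus strand) had 350 and 194 counts in GFP, 334 and 192 in YAP6SA, and 250 and 334 in YAP5SA. On the CPM scale these were 18.4 and 12.7, 17.0 and 11.6, and 16.6 and 18.7. The 3 groups overlapped, and the log2 fold change in YAP5SA OE CMs was 0.22 (95% interval -0.35 to 0.78, FDR 0.575, edgeR), below 0 in batch 1 and above 0 in batch 2. *Slc1a4* (ENSMUSG00000020142, chr11:20302180-20332713, minus strand) had 442 and 474 counts in GFP, 307 and 443 in YAP6SA, and 223 and 473 in YAP5SA. Its 23.2 and 31.0 CPM in GFP compared with 15.6 and 26.9 in YAP6SA and 14.8 and 26.5 in YAP5SA, so the groups overlapped and batch 2 was the higher in each. The log2 fold change of *Slc1a4* in YAP5SA OE CMs was -0.44 (95% interval -0.90 to 0.02, FDR 0.157, edgeR), below 0 in both batches, at -0.65 and -0.22.

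The cationic amino acid carrier gene *Slc7a1* (ENSMUSG00000041313, chr5:148327410-148399904, minus strand) had 525 and 586 counts in GFP, 1169 and 489 in YAP6SA, and 543 and 617 in YAP5SA. It had 27.6 and 38.3 CPM in GFP, 59.5 and 29.6 in YAP6SA, and 36.0 and 34.6 in YAP5SA. Both YAP5SA libraries lay within the GFP range, and the log2 fold change was 0.09 (95% interval -0.56 to 0.73, FDR 0.862, edgeR). The batch 1 YAP6SA library was the highest for *Slc7a1* and also had the highest sums of fibroblast and endothelial markers, 1777 and 330 CPM, whose part in this value was not tested.

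YAP6SA was compared as a variant with disrupted TEAD binding. The study describes YAP6SA as less nuclear than YAP5SA, so the effects of TEAD binding and of location in the cell cannot be told apart here. In YAP6SA OE CMs, 0 of the 8 genes were called against GFP (edgeR quasi-likelihood test), where 0.045% of all genes tested were called higher and 0% lower. The study reports many more genes up and down in YAP6SA OE CMs at the same FDR threshold, and the cause of this difference was not tested. At an unadjusted p under 0.05 there was 1 of the 8 genes, *Slc3a2*, against 5.93% of all genes tested. The likelihood ratio test, DESeq2 and limma-voom also called 0 of the 8. *Slc3a2* had a log2 fold change of 0.55 (95% interval 0.11 to 1.00, FDR 0.707, edgeR), which was 0.99 in batch 1 and 0.11 in batch 2. *Slc7a5* had 0.64 (95% interval -0.27 to 1.55, FDR 0.892, edgeR), with 0.60 and 0.72 in the batches. *Slc38a1* had -0.20 (-0.63 to 0.22) and *Slc38a2* had 0.20 (-0.27 to 0.68). For the remaining genes the log2 fold changes were -0.30 for *Slc7a6*, -0.12 for *Slc1a5*, -0.39 for *Slc1a4* and 0.39 for *Slc7a1*. The median over the 8 genes was 0.04, against 0.00 over all genes tested. The interval of *Slc7a5* reaches up to a 2.93-fold higher level.

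The variants were also compared directly, since both comparisons above share the GFP libraries. *Slc7a5* and *Slc38a1* were higher in YAP5SA than in YAP6SA OE CMs, which is 2 of 8 genes called higher and 0 lower, where 9% of all genes tested were called higher and 5.68% lower. *Slc7a5* was 7.38-fold higher (95% interval 4.06 to 13.4, log2 fold change 2.88, standard error 0.39, FDR 0.00186, edgeR), and *Slc38a1* was 2.07-fold higher (1.53 to 2.78, log2 fold change 1.05, standard error 0.19, FDR 0.00746). Both differences had the same sign in each batch, with 2.16 and 3.56 for *Slc7a5* and 0.66 and 1.45 for *Slc38a1*. Without the YAP6SA library of batch 2, *Slc38a1* had a log2 fold change of 0.73 and an FDR of 0.142.

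*Slc3a2* did not differ between the variants past the threshold, with a log2 fold change of 0.39 (95% interval -0.04 to 0.83, FDR 0.206, edgeR), and the interval includes both no difference and a 1.78-fold higher level. *Slc7a6* had 0.37 (0.03 to 0.71, unadjusted p = 0.0351, FDR 0.130, edgeR), higher in both batches. The log2 fold changes of *Slc1a5*, *Slc1a4*, *Slc7a1* and *Slc38a2* were 0.34, -0.05, -0.31 and -0.25, with an FDR of 0.410 to 0.907 (edgeR). Without the YAP5SA library of batch 1, *Slc7a6* was called higher, at 0.50 (FDR 0.0239), and *Slc38a2* lower, at -0.50 (FDR 0.0312), in YAP5SA than in YAP6SA OE CMs. The median of the 8 genes was 0.35, against -0.01 over all genes tested.

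**Figure D2:**
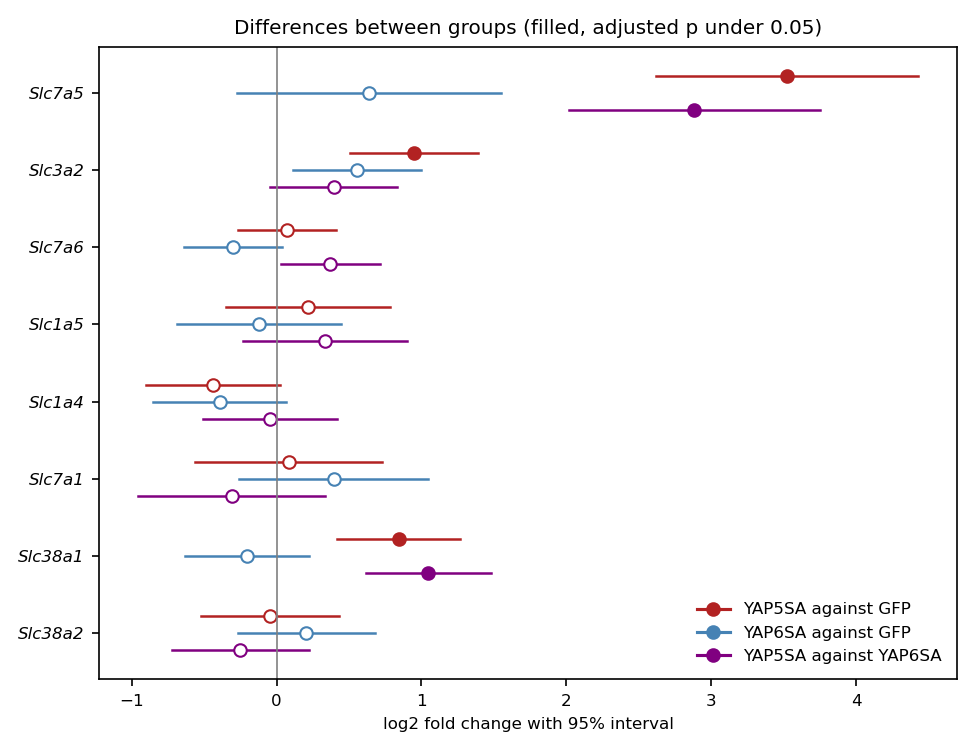
Log2 fold change (x axis) of the 8 transporter genes in each of the 3 comparisons, with 95% intervals from the edgeR fit of 6 libraries; filled points passed an FDR of 0.05 and open points did not. *Slc7a5* lies at 3.52 and 2.88 in the comparisons of YAP5SA with GFP and with YAP6SA, and all 8 points for YAP6SA against GFP are open.

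CD98 is shared by several light chains, so the transcripts of *Slc3a2* and of 6 genes for its light chains were set beside each other per length. *Slc7a6* made up 92.6% and 93.8% of the light chain TPM in the GFP libraries, 88.5% and 91.4% in YAP6SA, and 81.9% and 82.0% in YAP5SA. *Slc7a5* made up 1.57% and 0.875% in GFP, 2.88% and 1.67% in YAP6SA, and 9.94% and 12.7% in YAP5SA. Both YAP5SA libraries had the lowest share of *Slc7a6* and the highest share of *Slc7a5* among the 6 libraries. The nearest other light chain gene, *Slc7a7*, stood at 10.6 to 16.9 TPM over all libraries, above *Slc7a5* in the 4 libraries without YAP5SA and below it in both with YAP5SA.

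For every 100 *Slc3a2* transcripts by TPM there were 5.04 and 2.35 *Slc7a5* transcripts in the GFP libraries, 3.87 and 3.57 in YAP6SA, and 15.4 and 26.7 in YAP5SA. The TPM of *Slc3a2* divided by that of all 6 light chain genes was 0.311 and 0.372 in GFP, 0.746 and 0.467 in YAP6SA, and 0.644 and 0.477 in YAP5SA. Both variants thus had a higher heavy to light chain ratio than GFP in each library, and the ranges of the variants overlapped. These shares are descriptions of 2 libraries per group, for which an exact permutation test cannot go below p = 0.333, and levels in nuclear RNA are not levels of protein.

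**Figure D3:**
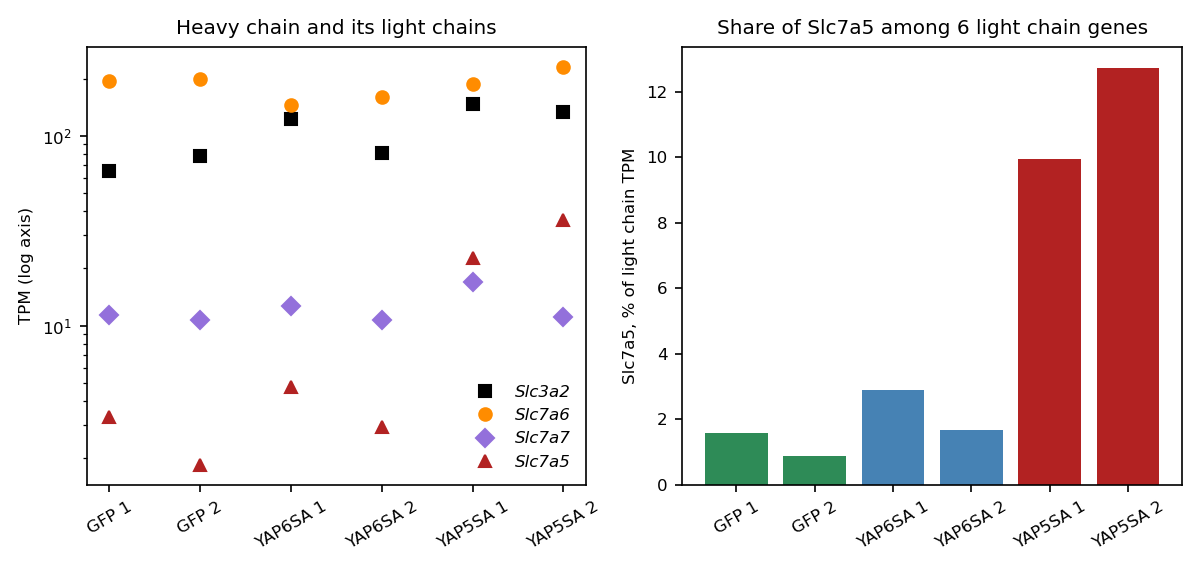
Left, TPM (log axis) of *Slc3a2* and of 3 of its light chain genes in each library; right, *Slc7a5* as a percentage of the TPM of 6 light chain genes, as bars from 0. *Slc7a5* rises from 1.85 to 4.75 TPM in the GFP and YAP6SA libraries to 22.7 and 35.8 TPM in YAP5SA, where its share is 9.94% and 12.7%.

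The other amino acid transporters of the plasma membrane moved in both directions in YAP5SA OE CMs. Of 33 listed genes, 16 passed the filter, and 3 were higher and 4 lower than in GFP (edgeR, FDR 0.05), where 12.8% and 9.18% of all genes tested were. *Slc1a3*, a glutamate and aspartate transporter, rose from 5.05 and 3.26 CPM in GFP to 45.7 and 86.7 in YAP5SA, a log2 fold change of 3.96 (standard error 0.37). *Slc43a1*, a sodium-independent carrier of large neutral amino acids, rose by 2.05 (0.35). The third was *Slc1a7*, another glutamate transporter, at 0.84 and 1.57 CPM in GFP and 5.76 and 13.6 in YAP5SA. It was 1 of 2 genes of this list that passed the filter through YAP5SA alone, the group in which it is high, so its call is not read as support. *Slc43a2*, which carries the same class of substrates, fell by 1.30 on the log2 scale. *Slc36a2*, a proton-coupled glycine and proline transporter, fell by 1.41, *Slc38a3*, a glutamine transporter, fell by 1.24, and *Slc16a10*, a carrier of aromatic amino acids, fell by 0.73. Before the change, *Slc36a2* and *Slc38a3* were the most abundant of this list by CPM, at 140 and 112 CPM in GFP. Against YAP6SA, the same 3 genes were called higher, and 3 of the 4, all but *Slc16a10*, were called lower, but without the YAP6SA library of batch 2 there were 2 and 1. Without the GFP library of batch 1 there were 4 higher and 2 lower genes against GFP, and without that of batch 2 there were 3 and 1.

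Carriers of amino acids in the membranes of mitochondria and lysosomes included several that were lower in YAP5SA OE CMs. Of 15 genes, 14 were tested, with 0 higher and 6 lower than in GFP (edgeR), against 12.8% and 9.18% of all genes tested, and a median log2 fold change of -0.43. *Slc25a22*, the mitochondrial glutamate carrier, fell by 1.05 on the log2 scale, from 542 and 464 CPM to 313 and 184. *Slc25a29*, a mitochondrial carrier of basic amino acids, fell by 1.01, and *Pqlc2*, which exports cationic amino acids from lysosomes, by 0.80. *Slc38a9*, the lysosomal arginine sensor, had -0.41 and was not called (FDR 0.127). Against YAP6SA, 5 genes of this list were lower and 1, the ornithine carrier gene *Slc25a15*, was higher, but without the batch term there were 1 and 0. There were 2 and 0 without the YAP6SA library of batch 1 or the YAP5SA library of batch 2, 0 and 0 without the YAP6SA library of batch 2, and 3 and 1 without the GFP library of batch 1 or in the fit of the 4 libraries compared. Without the GFP library of batch 1 or the YAP5SA library of batch 2, 3 genes were lower than in GFP, and without the GFP library of batch 2 there was 1. In this list, 1 gene was called higher than in GFP without the filter on low counts, without the GFP library of batch 1 and without the YAP5SA library of batch 1. The sum of CM markers was also lower in both YAP5SA libraries than in both GFP libraries, and its part in these values was not tested.

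Enzymes that use the transported amino acids were split as well. Of 16 tested of 19, 3 were higher and 3 lower in YAP5SA OE CMs than in GFP (edgeR), where the shares of all genes tested were 12.8% and 9.18%. *Glul*, which makes glutamine, rose by a log2 fold change of 1.03, *Shmt1*, the cytosolic serine hydroxymethyltransferase, by 1.09, and *Gclc*, which begins glutathione synthesis, by 0.58. The transaminase genes *Got1*, *Gpt* and *Gpt2* fell by 1.11, 1.03 and 1.01. Against YAP6SA, *Shmt1* and *Gclc* were higher, and *Got1*, *Gpt*, *Gpt2* and *Got2* were lower. These counts of 2 and 4 became 0 and 2 without the batch term or the YAP6SA library of batch 1, 0 and 0 without the YAP6SA library of batch 2, 1 and 2 without the YAP5SA library of batch 2, and 5 and 4 without that of batch 1. Against GFP, 1 enzyme gene was higher when either GFP library was left out, and 2 were higher when either YAP6SA library or the YAP5SA library of batch 2 was left out. Without the GFP library of batch 2, 1 was lower. In YAP6SA OE CMs, *Glul* had a log2 fold change against GFP of 0.82 (unadjusted p = 0.00246, FDR 0.436, edgeR).

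Of the 30 genes through which mTORC1 senses amino acids, all tested, 1 was higher and 4 were lower in YAP5SA OE CMs than in GFP (edgeR), where 12.8% and 9.18% of all genes tested were, so neither count stands out from the background. *Castor1*, whose product binds arginine and restrains mTORC1, was higher by 1.25 on the log2 scale (standard error 0.27), whereas its relative *Castor2* had -0.79. *Sesn1* and *Sesn3*, of the family of leucine sensors that restrain mTORC1, fell by 0.91 and 0.84, and *Rragd*, a Rag GTPase that recruits mTORC1 to the lysosome, by 0.84. *Flcn*, the most abundant of the list at 418 CPM in GFP, had -0.45 (FDR 0.119). Of the lower genes, *Rragd* and *Sesn3* were also lower than in YAP6SA OE CMs, but 0 genes were called there without the batch term, in the fit of the 4 libraries compared, or without either YAP6SA library or the YAP5SA library of batch 2. There was 1 without either GFP library, 8 were lower without the YAP5SA library of batch 1, and 4 were lower without the filter or by the likelihood ratio test. Without the GFP library of batch 2, 0 genes of this list were called against GFP, and without the YAP5SA library of batch 1 there were 3 higher and 9 lower, and without that of batch 2 there were 1 and 2.

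The transcription factors and kinase of the amino acid response and of growth, 10 genes, held 3 that were higher and 1 that was lower in YAP5SA OE CMs than in GFP (edgeR), where 12.8% and 9.18% of all genes tested were. *Atf4*, the main factor of the amino acid response, had a log2 fold change of 0.28 and was not called (FDR 0.222), at a GFP level of 218 CPM. *Atf3* rose by 1.86, *Mycn* by 1.52 and *Myc* by 1.48, and *Ddit3*, which encodes CHOP, fell by 1.35. The level of *Atf3* was close in the 2 variants, at 27.4 and 28.9 CPM in YAP5SA and 25.1 and 27.4 in YAP6SA, against 12.8 and 3.72 in GFP. In YAP6SA OE CMs *Atf3* was not called against GFP by the edgeR quasi-likelihood test. Other fits, given below, called 1 gene of this list higher there. The *Atf3* difference between YAP5SA and GFP rests on the batches unequally, with 1.09 in batch 1 and 2.96 in batch 2, and those of *Myc* and *Mycn* likewise, with 0.54 and 2.41, and 0.51 and 2.37. Against YAP6SA, *Myc* and *Mycn* were higher and *Ddit3* lower. In that comparison 1 gene of the list was higher without the batch term or without the YAP5SA library of batch 2, and 0 without the YAP6SA library of batch 2. Against GFP, 0 genes of this list were higher and 1 was lower without the GFP library of batch 2, 1 and 1 without the YAP5SA library of batch 2, and 5 and 1 without that of batch 1.

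The cytosolic aminoacyl-tRNA synthetases, which load amino acids onto tRNA and include targets of the amino acid response, had 20 genes tested and 0 called in any of the 3 comparisons (edgeR). Of all genes tested, 12.8% were called higher and 9.18% lower in YAP5SA against GFP, and 9% and 5.68% in YAP5SA against YAP6SA. In YAP6SA against GFP these shares were 0.045% and 0%. At an unadjusted p under 0.05 there was 1 synthetase gene in YAP6SA against GFP (edgeR), where 5.93% of all genes tested were. *Lars*, *Vars* and *Yars*, the most abundant in GFP, had log2 fold changes of -0.09, 0.32 and -0.00 in YAP5SA OE CMs. The median log2 fold change of the synthetase genes was 0.15 in YAP5SA against GFP and 0.17 in YAP5SA against YAP6SA. Without the YAP5SA library of batch 1 these medians were 0.34 and 0.30. In YAP6SA OE CMs, 0 genes of the 6 lists were called against GFP (edgeR). Among the response factors, 1 was called higher there with no filter, by the likelihood ratio test, by DESeq2, in the fit of 4 libraries, and without the GFP library of batch 1 or either YAP5SA library. Among the enzymes, 1 was called higher with no filter, in the fit of 4 libraries and without either YAP5SA library.

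**Figure D4:**
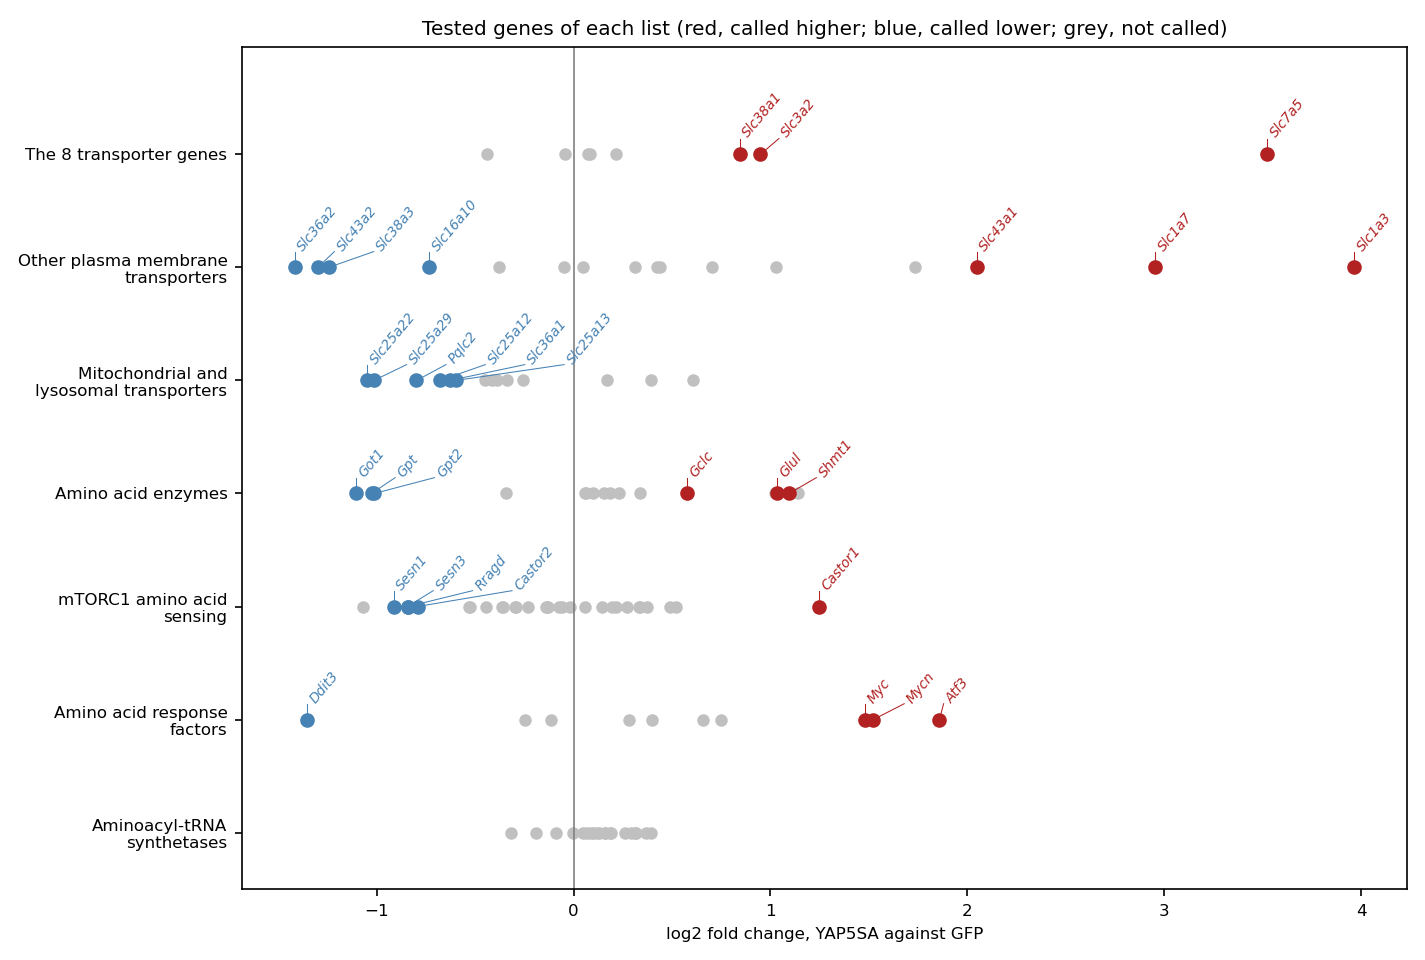
Log2 fold change in YAP5SA against GFP (x axis) of the tested genes of each list (y axis), with the 8 transporter genes in the top row; red points were called higher, blue points lower and grey points were not called. The mitochondrial and lysosomal list has 6 blue and 0 red points, the synthetase list has grey points alone, and *Slc7a5* and *Slc1a3* are the points farthest to the right.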

How the data were processed

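Per the labels, the authors pulled down CM nuclei, sequenced their poly-A RNA and mapped the reads with STAR to mm10. They deposited raw read counts per gene for 6 libraries, with no normalization. The 4 rows that name no gene held 22.0% to 23.4% of the reads of a library and were left out. GENCODE M21 named 54495 of the 54532 genes, and 37 had no name.

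The filter required a median log2 CPM above 1 in at least 1 group and left 13323 genes. The quasi-likelihood test of edgeR 4.0.16 in R 4.3.3, after TMM scaling, had terms for group and batch over all 6 libraries, Benjamini-Hochberg adjustment (FDR) and a threshold of 0.05. The study's methods name edgeR and a batch covariate. Standard errors and 95% intervals are those of this model, and a difference within a batch is that of its libraries' CPM. TPM was computed from the counts and the merged exon length. The model was tested on simulated data. The batch number is the replicate number in the labels, so it pairs the libraries, whose deviations from the group means had correlations across genes of 0.407, 0.111 and 0.183 for the 3 pairs of groups. Replicates differed by 31.0 to 49.4 times sampling noise by the chi-square of their counts, so none is a copy.

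The 8 genes and the lists were chosen with earlier results of these data known. From each list and comparison, genes to name were picked among the 3 called genes with the greatest change each way and the 3 with the highest GFP CPM, not all of which are named; *Slc16a10*, *Castor2* and all labels in the plot of the lists were added after their values were seen. A gene of the enzyme list is not reported here. The alternatives changed the scaling (RLE, upper quartile), the filter (none, or 10 counts or more per library) or the test (likelihood ratio, DESeq2 1.42.0, voom in limma 3.58.1), or used no batch term, only the 4 libraries compared, thresholds of 0.01 and 0.1, and each library left out in turn.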

Additional observations from a re-analysis of the deposited data

How the results depend on the processing

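The number of transporter genes called was 3 in YAP5SA against GFP, 0 in YAP6SA against GFP and 2 in YAP5SA against YAP6SA under each of the 9 alternatives of scaling, filter, test, block and libraries, and the genes called were the same. With no replicate block, that is without pairing by batch, they were again 3, 0 and 2. At a threshold of 0.01, *Slc38a1* was lost against GFP, leaving 2. With each library left out in turn, the counts ran from 1 to 3, from 0 to 0 and from 1 to 4. The 1 in YAP5SA against GFP came without the GFP library of batch 1, and the 1 and the 4 in YAP5SA against YAP6SA came without the YAP6SA library of batch 2 and the YAP5SA library of batch 1. In these fits the lone library of a group is assumed to vary like the others. The share of all genes called in each of them is not given here, so the counts they give for the lists are not read as results about a list.

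Genes that were not called changed sign in some of those fits. For YAP5SA against GFP, the log2 fold change ran from -0.041 to 0.20 for *Slc7a6*, -0.14 to 0.57 for *Slc1a5*, -0.35 to 0.64 for *Slc7a1* and -0.29 to 0.21 for *Slc38a2*. For YAP6SA against GFP, it ran from -0.32 to 0.075 for *Slc1a5*, -0.24 to 0.97 for *Slc7a1* and -0.55 to 0.11 for *Slc38a1*. Between the variants, it ran from -0.023 to 0.69 for *Slc1a5*, -0.17 to 0.073 for *Slc1a4* and -0.85 to 0.36 for *Slc7a1*. The cause was not tested, beyond there being fewer libraries. Ordered by CPM, without gene length, 3 of the 8 genes kept their rank in GFP.

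Over all genes, YAP6SA against GFP gave 6 higher and 0 lower genes, but 168 and 68 in the fit of 4 libraries, 109 and 36 without a filter, 54 and 28 by the likelihood ratio test and 40 and 15 by DESeq2. Without a replicate block, 0 were called, and YAP5SA against GFP and against YAP6SA gave 759 and 301 lower genes in place of 1223 and 757. In the lists, with no replicate block, the enzymes higher than in GFP fell from 3 to 1, and with 4 libraries to 2. Among the carriers of mitochondria and lysosomes, between 4 and 6 genes were lower than in GFP over the 9 alternatives and between 1 and 8 with a library left out. Without the YAP6SA library of batch 2, 0 enzyme genes, 0 of these carriers and 0 mTORC1 genes differed between the variants.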

Other observations

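The genes most like *Slc7a5* across the 6 libraries, by Pearson's r of log2 CPM, were *Pkmyt1*, a kinase that holds back entry into mitosis (r = 0.999), *Zc3h12a*, an RNase of inflammatory transcripts (0.999), and *Ptges3*, a co-chaperone (0.998). With 6 libraries that share groups and batches, these values describe the libraries and have no test. *Slc38a1* had an r of 0.840 with *Slc7a5* and was number 2031 of 13322 genes by this measure, and *Slc3a2* had 0.809 and was number 2330. *Slc1a5*, *Slc7a6* and *Slc7a1* were numbers 3832, 4747 and 6532, and *Slc1a4* and *Slc38a2*, with r values of -0.37 and -0.49, were numbers 8240 and 8871.

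The TPM of the 8 genes together was 1115 and 1225 in the GFP libraries, 1237 and 1231 in YAP6SA, and 1356 and 1188 in YAP5SA. Both YAP6SA libraries were slightly above both GFP libraries, and the range of the YAP5SA libraries overlapped those of both other groups, with no test made.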
